A study of Mus musculus with 37 samples.

Results

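The transcripts described here are 8 genes that mark lymphocytes, measured on arrays of brown adipose tissue. *Cd79a*, *Cd79b*, *Ms4a1* and *Ighm* mark B cells, and *Cd3e*, *Cd3g*, *Cd4* and *Cd8a* mark T cells. They were taken by gene symbol, and for a gene with several probe sets the one with the highest mean over the BXD strains was used. All 8 were found among the 24657 gene symbols of the table. The samples were 35 BXD strains, inbred lines that descend from a cross of C57BL/6J with DBA/2J, and those 2 parental strains. All were males on chow diet, aged 29 weeks and fasted overnight before the tissue was taken. RNA of about 5 animals was pooled for each strain and run on 1 array, so the value of a strain carries no error of its own and the number of arrays limits the precision. Values are in rescaled units, in which each array has the same mean, 8, and the same standard deviation, 2. Gaps in these units are not folds, because neither the log base nor the spread of the values before that step is known.

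B cells recognise antigen through a membrane immunoglobulin, whose mu heavy chain is encoded by *Ighm*, and pass the signal on through the paired chains encoded by *Cd79a* and *Cd79b*. T cells carry a receptor that signals through the CD3 chains, with CD4 or CD8 as co-receptor. Adipose tissue holds resident lymphocytes, and fat depots can enclose lymph nodes. *Ahr* encodes a ligand-activated transcription factor that is active in several immune cells, and *Ahrr* encodes a repressor of it that is also one of its targets.

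The tissue label was checked against marker lists, each summarised as the mean of its genes in a strain. All 8 brown fat genes, *Ucp1* among them, were above background, and their mean ran from 11.90 in BXD97 to 13.08 in BXD70. A liver list of 6 genes stood at 12.22 in BXD70 and at 10.78 in DBA/2J, against a median of 7.44 over the BXD strains, a next highest BXD strain of 8.73 and 7.58 in C57BL/6J. The arrays of BXD70 and DBA/2J thus carried liver transcripts, and the tests below, which use the BXD strains alone, gave the same counts of lymphocyte pairs called with and without BXD70. Muscle genes also varied, from 9.97 in BXD65 to 13.75 in BXD97.

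Background was taken from 1128 probe sets of olfactory receptors, and a transcript was counted as above it when its mean exceeded their 95th percentile, 7.94. Of all 41155 probe sets, 47.2% passed, and of the 8 lymphocyte genes 2 did, *Ighm* and *Cd3e*. *Ighm* was above that value in 35 of 35 strains and *Cd3e* in 23, while *Cd79b* reached it in 13, *Cd8a* in 5, *Cd79a*, *Cd3g* and *Cd4* in 1 each and *Ms4a1* in 0. A dim probe set gives a compressed measure of its transcript, and in pooled bulk tissue fewer lymphocytes and less RNA per lymphocyte cannot be told apart.

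Among the B cell genes, *Cd79a* had its lowest value of 7.14 in BXD87, a median of 7.38 and its highest value of 8.01 in BXD49. Its range of 0.873 units lay at the 47.1th percentile of the ranges of all probe sets, so it varied over strains about as much as a typical probe set. *Cd79b* ran from 7.37 in BXD43 through a median of 7.90 to 8.43 in BXD85, with BXD80 next at 8.38. *Ms4a1*, which encodes the B cell surface protein CD20, ran from 6.39 in BXD70 through 6.80 to 7.27 in BXD71. In none of these 3 did a single strain stand far from the next, the gap from the highest to the second strain being 0.191, 0.057 and 0.213 units.

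*Ighm* behaved differently from the other B cell genes. Its lowest value was 10.26 in BXD90, its median 11.47 and its highest value 12.45 in BXD97, with BXD65 at 12.41. That range of 2.19 units was at the 94.5th percentile of all probe sets. The highest strain was 0.04 units above the second, and the lowest, BXD90, was followed by BXD89 at 10.51. C57BL/6J at 12.003 and DBA/2J at 12.17 both lay high, and 26 of the 35 BXD strains were below both parents. The gene has 6 probe sets, and the other 5 followed the brightest weakly, with r between -0.175 and 0.272, so the values of *Ighm* are those of 1 probe set.

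Each of the 4 T cell genes was highest in the same strain, BXD80, a strain that holds the highest value for 3% of all probe sets. *Cd3e*, a signalling chain of the T cell receptor complex, ran from 7.56 in BXD83 through a median of 8.08 to 9.19 in BXD80, and BXD62 was second at 8.71. *Cd3g*, another chain of that complex, ran from 6.09 in BXD56 through 6.69 to 8.69 in BXD80, and BXD50 was second at 7.49. The gap of 1.21 units below BXD80 was nearly as wide as the 1.40 units spanned by the other strains. For the co-receptors the separation was smaller. *Cd4* ran from 7.02 in BXD43 through 7.59 to 8.06 in BXD80, 0.147 above the next strain, and *Cd8a* from 7.39 in BXD83 through 7.74 to 8.36 in BXD80, 0.105 above the next. BXD80 was thus apart from the other strains for the CD3 chains and at the upper end of a continuous series for the co-receptors.

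**Figure D1:**
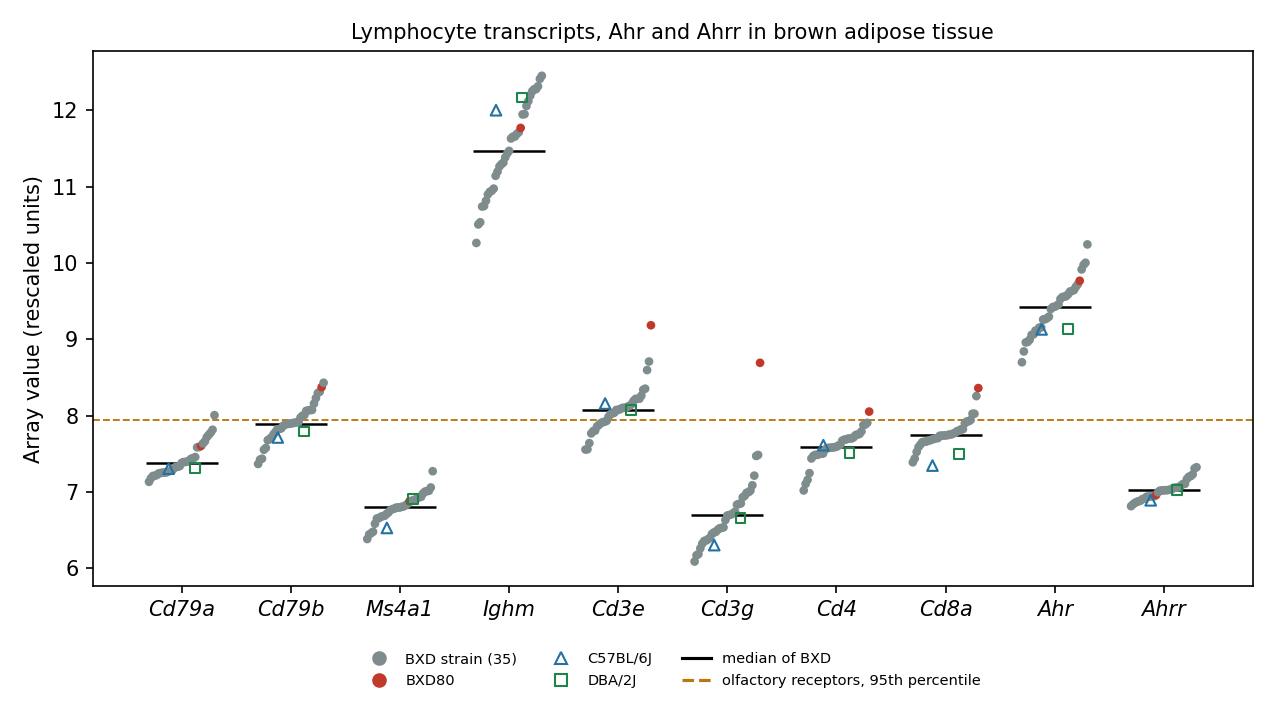
Array values in rescaled units (vertical axis) of the 8 lymphocyte genes, *Ahr* and *Ahrr* (horizontal axis), with 1 point per BXD strain in order of value, the median as a bar, the parents as open symbols and the 95th percentile of olfactory receptors as a dashed line. BXD80 is the highest strain for *Cd3e*, *Cd3g*, *Cd4* and *Cd8a*, at 9.19, 8.69, 8.06 and 8.36, and lies inside the range of each B cell gene.

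The parents, with 1 array each, allow a difference but no test. The DBA/2J array also carried liver transcripts (liver list at 10.78, against 7.58 in C57BL/6J). The part of these in the differences was not tested. DBA/2J minus C57BL/6J was 0.381 for *Ms4a1*, 0.354 for *Cd3g*, 0.168 for *Ighm*, 0.150 for *Cd8a*, 0.078 for *Cd79b*, 0.007 for *Cd79a*, -0.085 for *Cd3e* and -0.105 for *Cd4*. Over all probe sets the median size of this difference was 0.182. Its 95th percentile was 0.770, a size that 5% of probe sets exceed by definition and that none of the 8 reached. For *Cd8a* the parents were low, with 33 of 35 BXD strains above both of them.

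To compare the B cell with the T cell genes over strains, all 45 pairs among the 8 genes, *Ahr* and *Ahrr* were correlated over the 35 BXD strains. Each r and rho has a two-sided permutation p from 100000 resamples. Calls were made with limma, using one transcript as a continuous covariate for all other probe sets and Benjamini-Hochberg adjustment over the 41154 tested. A pair of genes enters the counts of ordered pairs in both directions, so these are not counts of independent tests.

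The T cell genes were all positively correlated with each other. *Cd3e* and *Cd3g* had r = 0.746 (p = 3e-05) and rho = 0.552 (p = 0.00062), and each was called in the fit of the other, with adjusted p = 0.000866 when *Cd3e* was the covariate and 0.000424 when *Cd3g* was. *Cd3e* rose by 0.483 ± 0.0745 (SE, n = 35) units per unit of *Cd3g*. *Cd8a* was also called in the fit with *Cd3g* (r = 0.624, adjusted p = 0.0425), though not in the reverse direction (adjusted p = 0.233). In all, limma called 3 of 12 ordered pairs of T cell genes, where it called 0.0583% of all probe sets with *Cd3e* as covariate, 0.182% with *Cd3g* and 0% with *Cd4* or *Cd8a*. At an unadjusted p under 0.05 the count was 12 of 12, beside 7.58%, 7.57%, 8.47% and 6.43% of all probe sets with *Cd3e*, *Cd3g*, *Cd4* and *Cd8a* as covariate. The remaining pairs of T cell genes had r from 0.386 to 0.562.

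These calls rest on BXD80. Without that strain limma called 0 of the 12 ordered pairs, with 10 at an unadjusted p under 0.05, beside 8.55%, 7.07%, 8.77% and 8.8% of all probe sets with *Cd3e*, *Cd3g*, *Cd4* and *Cd8a* as covariate in the same fits, and r fell to 0.562 for *Cd3e* with *Cd3g*, to 0.417 for *Cd3g* with *Cd8a* and to 0.355 for *Cd3e* with *Cd8a*. With the 2 strains farthest from the median of the first gene left out, r was 0.462, 0.381 and 0.144 for these pairs. All 6 pairs stayed positive without BXD80, from 0.244 to 0.562.

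Among the B cell genes the median r was 0.198, or 0.331 without *Ighm*, beside 0.548 among the T cell genes. Without BXD80 the last 2 came to 0.324 and 0.386, and the difference was not tested. *Cd79a* and *Cd79b*, whose proteins form a dimer, had r = 0.544 (p = 0.00068) and rho = 0.610 (p = 0.00012), and r = 0.523 without the 2 strains farthest in *Cd79a*. *Ms4a1* had r = 0.266 with *Cd79a* and 0.331 with *Cd79b*. *Ighm* followed neither chain, at r = 0.129 with *Cd79a* and -0.124 with *Cd79b*, and had r = -0.149 with *Ms4a1*. None of the 12 ordered pairs was called by limma, where 0.00486% of all probe sets were called with *Cd79a*, 0% with *Cd79b* or *Ms4a1* and 0.722% with *Ighm*. At an unadjusted p under 0.05 the count was 3 of 12, beside 8.01%, 7.38%, 9.71% and 11.5% of all probe sets with *Cd79a*, *Cd79b*, *Ms4a1* and *Ighm* as covariate, and 1 of 6 pairs had a permutation p under 0.05.

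Between the sets, the largest relation was that of *Cd79b* with *Cd4* (r = 0.575, p = 0.00033, rho = 0.420, p = 0.013, and r = 0.507 without the 2 farthest strains). *Cd79b* with *Cd3e* had r = 0.492 (p = 0.0024). Of the 12 pairs that do not include *Ighm*, all were positive, with a median r of 0.357 and 6 permutation p under 0.05, close to the median of 0.331 within *Cd79a*, *Cd79b* and *Ms4a1*. *Ighm* had r between -0.234 and -0.010 with the 4 T cell genes. Limma called 0 of the 32 ordered pairs of a B cell with a T cell gene, and 12 had an unadjusted p under 0.05, where with the 8 genes as covariates it called 0% to 0.722% of all probe sets and 6.43% to 11.5% had an unadjusted p under 0.05.

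**Figure D2:**
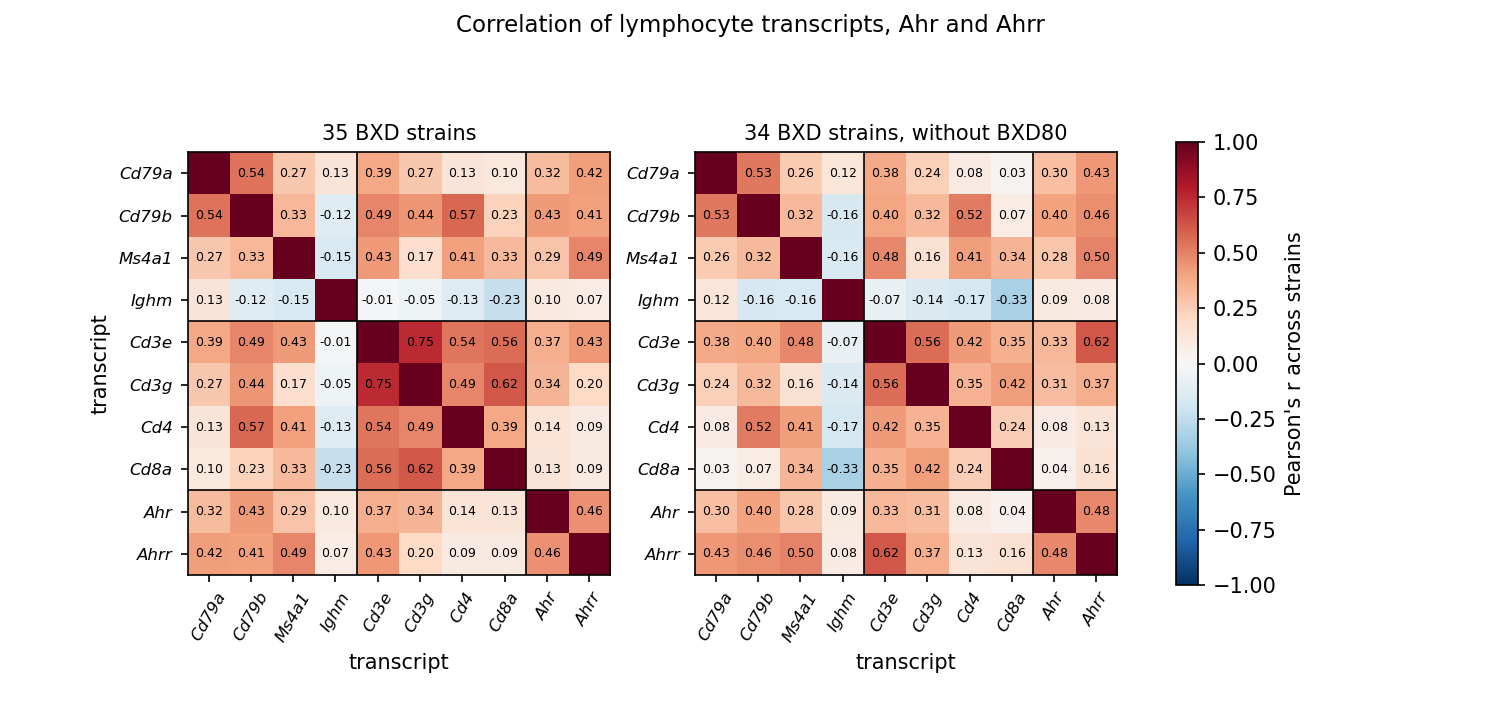
Pearson's r (colour and printed value) between each pair of the 8 lymphocyte genes, *Ahr* and *Ahrr*, over the 35 BXD strains (left) and without BXD80 (right), with lines between the B cell genes, the T cell genes and the Ahr pair. The T cell block runs from 0.386 to 0.746 over all strains and from 0.244 to 0.562 without BXD80, and the row of *Ighm* stays near or below 0.

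Averaged over its 4 genes, the B cell mean ran from 8.10 in BXD99 through a median of 8.40 to 8.71 in BXD66, a range of 0.606 units. The T cell mean ran from 7.12 in BXD83 through 7.52 to 8.58 in BXD80, a range of 1.46 units that narrowed to 0.930 without BXD80. The means had r = 0.269 and rho = 0.278 over 35 strains, and r = 0.156 without BXD80 and 0.461 when all probe sets of a gene were averaged. Because *Ighm* carried most of the spread of the B cell mean (r = 0.750 between them), the mean was also formed without it, a choice made after the values were seen. That mean of *Cd79a*, *Cd79b* and *Ms4a1* had r = 0.523 and rho = 0.577 with the T cell mean, and r = 0.502 without BXD80, and it had r = -0.065 with *Ighm*.

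With the genes that form it left out, the 10 transcripts most like the T cell mean over the 35 strains held no listed gene. LOC665506, described as resembling a constant region of the T cell receptor beta chain, had r = 0.843, followed by *Cd226* (0.805), the interleukin receptor chain *Il2rb* (0.801), the chemokine receptor *Cxcr6* (0.799), *Gimap3* (0.796), the receptor segment *Trav9d-3* (0.784), *Gimap7* (0.776), *Serpina3f* (0.776), *Stat4* (0.766) and the chemokine *Ccl5* (0.741). Over the 21 probe sets of T cell receptor segments the median r was 0.0737 with *Cd3e* and 0.0379 with *Cd3g*, with a lowest r of -0.333 and -0.364, and 3 were called with each. All 10 most alike transcripts were highest in BXD80, 3 of them, LOC665506, *Trav9d-3* and *Ccl5*, were above background, and without that strain their r was between 0.530 and 0.726. With the genes that form it left out, the 9 most like the B cell mean included no gene of the B cell lists. They were *Cnn2* (0.730), *Itga6* (0.716), *Wnk1* (0.707), *Myadm* (0.700), *Col6a2* (0.697), *Upp1* (0.693), the leukocyte gene *Ptprc* (0.692), *Thbs1* (0.691) and *Evl* (0.690). With *Ighm* left out of the mean, the genes that form it were again left out of the ranking. The 10 most alike were then *Krtap31-2* (0.722), *Cd22*, which encodes an inhibitory co-receptor of B cells (0.666), *Prkx* (0.663), 9430077A04Rik (0.656) and *Gga3* (0.654). After them came *Gimap8* (0.652), *Bpifb1* (0.643), *Gm14636* (0.636), *Rtkn2* (0.629) and the MHC class II gene *H2-Eb1* (0.619). Of these 10, *Prkx*, *Gga3*, *Gimap8* and *H2-Eb1* were above background.

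Other lymphocyte genes were read from lists. In the fit with *Cd3g* as covariate, 2 of 17 other T cell genes rose and none fell. *Cd8b1*, which encodes the partner chain of CD8, had r = 0.667 (adjusted p = 0.00877) and *Lat*, an adaptor of T cell receptor signalling, had r = 0.676 (adjusted p = 0.00879). The list had a median r of 0.320 with *Cd3g* and 0.420 with *Cd3e*, beside -0.007 and 0.000 over all probe sets. *Cd3d*, which lies between *Cd3e* and *Cd3g* on chromosome 9, had r = 0.445 with *Cd3e* and 0.304 with *Cd3g*. Of 7 NK and cytotoxic genes 1 was called with *Cd3g*, *Nkg7* at r = 0.643 (adjusted p = 0.0199). Among the 24 probe sets called with *Cd3e* and the 75 called with *Cd3g*, 20 were shared, 83.3% of the former and 26.7% of the latter, and 23 and 67 of them were highest in BXD80. Without that strain the fits called 6 and 3 probe sets.

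None of 16 other B cell genes was called with any of the 8 lymphocyte genes. Their median r was 0.332 with *Cd79a* and 0.299 with *Cd79b*, beside 0.010 and 0.004 over all probe sets, and 0.105 with *Ighm*. *Cd22* had r = 0.649 with *Cd79b* (adjusted p = 0.158). Of 53 further immunoglobulin probe sets none was called with *Ighm*, and their median r was 0.133. The 6 plasma cell genes had a median r of 0.132 with *Ighm* and were not called either.

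The probe sets that did follow *Ighm*, 141 upward and 156 downward, included 3 of 5 white fat genes, all upward. These were the leptin gene *Lep* (r = 0.677, adjusted p = 0.00545), *Mest* (r = 0.635, adjusted p = 0.0117) and *Npr3* (r = 0.587, adjusted p = 0.0272). The other 2 were not called, *Retn* at r = -0.386 (adjusted p = 0.28) and *Agt* at r = 0.227 (adjusted p = 0.67). With the 2 strains farthest in *Ighm* left out, 26 probe sets were called with it, 16 upward and 10 downward. Of 8 macrophage genes 1 rose, *Itgam* (r = 0.579, adjusted p = 0.0379). The white fat list had r = 0.671 with *Ighm* and ran from 10.01 in BXD90, the strain lowest in *Ighm*, to 11.72 in BXD61. None of the genes of the brown fat, muscle, liver or blood lists was called with *Ighm*. The part of the white fat share of a sample in its *Ighm* value was not tested. The genes most like *Ighm*, named after their values were seen, were *Thbs1* (r = 0.737) and *Serpina3c* (r = 0.733) upward and 1110018G07Rik (r = -0.809) and *Gpr108* (r = -0.783) downward. *Cd79a* had 2 calls, likewise named after their values were seen, the coagulation inhibitor gene *Tfpi* (r = 0.812, adjusted p = 5.24e-05) and the proteasome gene *Psmc5* (r = -0.718, adjusted p = 0.0218).

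In BXD80 other lists were read beside the T cell genes. The mean of the other T cell genes was highest in that strain, at 7.96 against a next value of 7.86, and so was that of 5 MHC class II genes, at 11.67 against 11.55, with 4 of the 5 highest there and its most abundant gene, *Cd74*, at 13.71 against a mean of 12.70. The macrophage list ranked 6 of 35 in BXD80, the NK and cytotoxic list 4, the other B cell list 10, the plasma cell list 17 and the blood list 25. The cell division list of 5 genes was highest there, at 7.94 against 7.89, with 1 gene highest. A list of 8 lymph node stroma and vessel genes was lowest there, at 8.65 against a median of 8.91, and its most abundant gene, *Ccl21a*, was at 9.98 against a mean of 10.39. The immature lymphocyte list, with genes of developing thymocytes and B cells, ranked 28 and the neutrophil list 27.

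**Figure D3:**
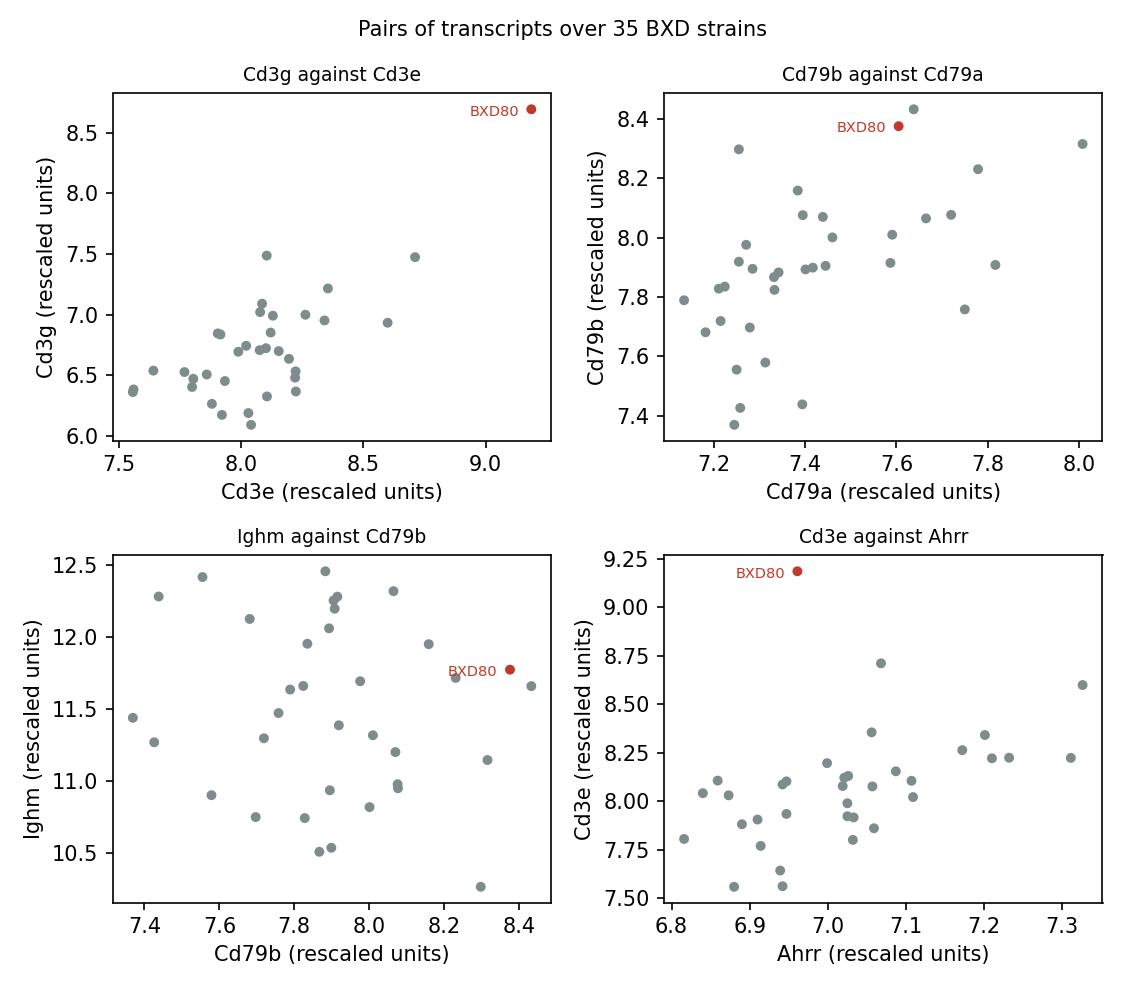
Values in rescaled units of 4 pairs of transcripts, with 1 point per BXD strain (n = 35) and BXD80 in red. BXD80 lies at the upper right for *Cd3e* and *Cd3g* (9.19 and 8.69) and above the other strains for *Cd3e* against *Ahrr*, while *Ighm* shows no trend with *Cd79b* (r = -0.124).

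No lymphocyte gene passed the test against *Ahr*, which ran from 8.70 in BXD89 through 9.43 to 10.24 in BXD96 and was above background in 35 of 35 strains. Limma called none of the 8 lymphocyte genes with *Ahr* as covariate, where it called 0% of all probe sets. At an unadjusted p under 0.05 the count was 3 of 8, beside 8.23% of all probe sets, and it was 1 of 8 without BXD80, beside 7.95%, and 5 of 8 with the 2 strains farthest in *Ahr* left out, beside 7.16%. All 8 had a positive r. The largest was that of *Cd79b* (r = 0.428, p = 0.011, rho = 0.396, p = 0.020, adjusted p = 0.430), and r was 0.50 without the 2 strains farthest in *Ahr*, where *Cd3e* was level at 0.501. *Cd3e* had r = 0.366 (p = 0.031) and *Cd3g* 0.340 (p = 0.047), at 0.331 and 0.309 without BXD80, then came *Cd79a* at 0.317 and *Ms4a1* at 0.288, and *Cd4*, *Cd8a* and *Ighm* were at 0.137, 0.130 and 0.0997, or 0.344, 0.254 and -0.0754 without the 2 strains farthest in *Ahr*. The median r of all probe sets with *Ahr* was 0.000, and *Cd79b* lay at the 98.7th and *Cd3e* at the 97.1th percentile of them.

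*Ahrr* ran from 6.82 in BXD43 through 7.03 to 7.33 in BXD95, a range of 0.510 units at the 5.20th percentile of all probe sets, and was below the background value in every strain. Its relations therefore come from a dim probe set of small spread. Limma called 0 of the 8 lymphocyte genes with *Ahrr* as covariate and 0.00243% of all probe sets, a single probe set with no gene symbol. At an unadjusted p under 0.05 the count was 4 of 8, beside 8.16% of all probe sets, and it was 5 of 8 without BXD80, beside 8.12%, and 2 of 8 with the 2 strains farthest in *Ahrr* left out, beside 7.75%. *Ms4a1* had r = 0.486 (p = 0.0034, rho = 0.430, p = 0.011, adjusted p = 0.410). *Cd3e* had r = 0.435 (p = 0.0091) and rho = 0.585 (p = 0.00031), and without BXD80 its r rose to 0.618 with an adjusted p of 0.214. With the 2 strains farthest in *Ahrr* left out, the r of *Cd3e* was 0.362. *Cd79a* and *Cd79b* were at 0.416 and 0.412, but with the 2 strains farthest in *Ahrr* left out they came to 0.149 and 0.272. The muscle list had r = -0.433 with *Ahrr*. With that list as a further covariate *Cd79a* was at 0.412 and *Cd79b* at 0.324, and the part of muscle content was not tested. *Cd3g* had r = 0.200 (p = 0.25) and rho = 0.419 (p = 0.013), and r = 0.367 without BXD80. *Cd4*, *Cd8a* and *Ighm* had r = 0.0913, 0.0865 and 0.0734, or 0.132, 0.156 and 0.0807 without BXD80. With the 2 strains farthest in *Ahrr* left out they came to 0.183, 0.206 and 0.107. *Cd22* was the third most alike named gene to *Ahrr* (r = 0.622, adjusted p = 0.215), after *Pkp1* (0.654) and the endothelial factor gene *Sox7* (0.629) and before *Prkx* (0.610) and D630042F21Rik (0.605).

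*Ahr* and *Ahrr* were themselves related, with r = 0.460 (p = 0.0054), rho = 0.498 (p = 0.0026) and r = 0.466 without the 2 strains farthest in *Ahr*, although *Ahrr* was not called in the fit with *Ahr* (adjusted p = 0.432). The named genes most alike to *Ahr* were *Kitl* (r = 0.686), *Bptf* (0.683), *Eltd1* (0.658), *Adamts9* (0.657) and *Cflar* (0.647), none of them a lymphocyte marker, and the most opposed were *Tmed3* (-0.645), *Ttc15* (-0.645), 2310030G06Rik (-0.634), *Niacr1* (-0.619) and *Adi1* (-0.615). Those most opposed to *Ahrr* were *Gm5088* (-0.677), *Alkbh5* (-0.639), *Gpr157* (-0.638), 2010003O02Rik (-0.632) and *Atmin* (-0.620). None of the 7 AHR target genes, of which *Ahrr* is one, or the 4 partner genes was called with *Ahr*, and none of the other 6 target genes or the partner genes with *Ahrr*.

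Promoters of 5 of these genes could be read from RefSeq (GRCm38.p6), as windows of 300 bases around the gene start, and are shown here, *Cd3e*, *Cd3g* and *Cd8a* because they are the genes of the called T cell pairs, *Cd79a* as the B cell gene that could be read and *Ahrr* as an AHR target. Both strands were searched for GCGTG, the core bound by AHR with ARNT, found in 32.4% of 32851 promoters, for the octamer ATGCAAAT of lymphoid promoters (1.74%), and for CAGGAAGT, a form of the ETS site that was added after the sequences were seen (3.33%). Capitals mark matches on either strand. *Ahrr* held GCGTG 3 times and *Cd79a* and *Cd8a* 1 time each, *Cd79a* and *Cd3e* held CAGGAAGT 1 time each, *Cd3g* held none of these letters, and the octamer letters were not in these windows.
*Cd79a* promoter, chr7:24897247-24897546, plus strand: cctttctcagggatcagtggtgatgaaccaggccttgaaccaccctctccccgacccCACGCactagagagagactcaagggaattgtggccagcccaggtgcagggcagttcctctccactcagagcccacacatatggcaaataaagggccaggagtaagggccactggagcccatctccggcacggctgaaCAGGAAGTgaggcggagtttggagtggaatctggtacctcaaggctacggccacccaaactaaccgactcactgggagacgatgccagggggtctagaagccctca
*Cd3e* promoter, chr9:45009562-45009861, minus strand: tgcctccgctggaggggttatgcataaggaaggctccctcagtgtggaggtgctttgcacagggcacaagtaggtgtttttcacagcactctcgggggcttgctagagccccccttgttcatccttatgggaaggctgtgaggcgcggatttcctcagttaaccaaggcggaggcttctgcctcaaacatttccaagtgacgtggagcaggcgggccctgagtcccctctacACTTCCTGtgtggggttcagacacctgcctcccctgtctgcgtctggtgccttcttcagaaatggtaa
*Cd3g* promoter, chr9:44980382-44980681, minus strand: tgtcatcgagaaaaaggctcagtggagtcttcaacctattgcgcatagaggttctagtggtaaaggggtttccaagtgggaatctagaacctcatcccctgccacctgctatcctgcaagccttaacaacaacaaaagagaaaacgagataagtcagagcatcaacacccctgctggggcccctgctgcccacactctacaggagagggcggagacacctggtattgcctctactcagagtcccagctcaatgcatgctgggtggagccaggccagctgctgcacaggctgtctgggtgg
*Cd8a* promoter, chr6:71373177-71373476, plus strand: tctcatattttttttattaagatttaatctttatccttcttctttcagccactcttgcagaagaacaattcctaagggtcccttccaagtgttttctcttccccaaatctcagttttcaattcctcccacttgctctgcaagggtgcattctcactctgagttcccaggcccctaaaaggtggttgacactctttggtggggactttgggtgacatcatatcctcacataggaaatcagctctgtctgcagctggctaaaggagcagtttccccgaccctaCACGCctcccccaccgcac
*Ahrr* promoter, chr13:74292282-74292581, minus strand: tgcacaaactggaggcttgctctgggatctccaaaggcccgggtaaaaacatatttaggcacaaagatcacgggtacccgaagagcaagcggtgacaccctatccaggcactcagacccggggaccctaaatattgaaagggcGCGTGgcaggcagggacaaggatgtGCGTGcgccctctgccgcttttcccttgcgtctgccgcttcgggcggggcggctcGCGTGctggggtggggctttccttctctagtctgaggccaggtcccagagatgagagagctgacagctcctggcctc
A match is a description of the letters only, and binding was not analysed here.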

How the data were processed

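The values deposited by the authors are scores for 41345 probe sets on 37 arrays, put on a common scale (mean 8, standard deviation 2) array by array. Per the labels, 100 ng of RNA from each pool was amplified and 5500 ng of cDNA labelled, and the submitters' processing notes name Affymetrix Expression Console, with no version. The log base and summary method are not given in the sources used here. The tests had been planned for array values on a log2 scale and were run on the scores as deposited. Columns were matched to strains by name, and 190 array controls were left out.

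Fits used limma 3.58.1 (lmFit and eBayes) in R 4.3.3, with Benjamini-Hochberg adjustment and a threshold of 0.05. In simulated data, 200 probe sets were made to follow a random covariate. The fits recovered 1% of them at an effect of 0.5 standard deviations per standard deviation of the covariate, with 0 false calls. At an effect of 1.5 they recovered 100%, with 12 false calls. A count of 0 called thus says little of relations as weak as the smaller effect. Other steps used Python 3.11.15 (pandas 2.3.3, numpy 2.4.6, scipy 1.17.1; figures with matplotlib 3.10.9). The brightest probe set stood for a gene. Genes named are the 8 members, *Ahr*, *Ahrr*, those of the marker lists, the 10 most like each set mean and the 5 most like and most opposed to *Ahr* and *Ahrr*, beside a few named after their values were seen, as the text says. Members and lists were chosen with earlier results of these data known. No p is given for a set mean. Arrays have no read depth. Alternatives covered scaling, strains, probe sets, muscle content, a principal component, dim probe sets, ranks and thresholds. Leaving out BXD80, leaving *Ighm* out of the B cell mean and a background from array probe sets were added after seeing the data.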

Additional observations from a re-analysis of the deposited data

How the results depend on the processing

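Against 3 of 12 ordered pairs of T cell genes, limma called 0 without BXD80, 0 with ranks of the covariate and 0 with the 2 farthest strains left out, and 1 when dim probe sets were left out, where only 3 pairs could be tested. With each strain left out in turn the count ran from 0 to 4, with 0 when BXD80 was left out and 4 when BXD95 was. It was 2 for 17 of the strains and 3 for 16. Quantile normalization, centring on the median and a threshold of 0.01 for the adjusted p each gave 2. The r of the B cell with the T cell mean moved from 0.269 to 0.461 when all probe sets of a gene were averaged, to 0.523 without *Ighm* in the mean and to 0.156 without BXD80. The range of the T cell mean moved from 1.46 to 0.930 without BXD80, and with each strain left out in turn it ran from 0.930 to 1.46. Members above background numbered 1 against the 99th percentile of olfactory receptors, 8 against their median and 1 against the brightest of 23 background probe sets of the array. Except where stated, the cause was not tested. Counts of 0 against *Ahr* and *Ahrr*, within the B cell genes and between the sets stayed at 0 in every alternative run, which says little of stability, since a relation as large as r = 0.575 (*Cd79b* with *Cd4*, adjusted p = 0.26) was not called. *Ahr* with *Ahrr* kept its sign and its permutation p under 0.05. Of 925 values of the 20 single relations with a permutation p under 0.05, 28 lost their call, 1 gained one and none changed sign, while *Ighm* with *Ahr* and with *Cd3g*, outside that choice, did when the 2 farthest strains were left out (-0.0754 and 0.0212). The call of *Cd8a* with *Cd3g* accounted for 24 of the losses. No paired analysis was possible because each strain has 1 array and the groups share no replicates. Signal near background limits the reading of 6 of the 8 genes.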
